A study of Mus musculus with 18 samples.

Results

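The genes described are 44 named genes of mouse chromosome 19 with roles in signalling, cell death, lipid and general metabolism, chromatin and cell division, RNA and the cytoskeleton. They were taken from a list of names, and each is represented by 1 probe set, the one with the highest mean over all 18 arrays. Of the 44 genes, 41 had a probe set listed with exactly that 1 gene and are described below. Chuk, Dusp5 and Rbm4 had none and are not analysed here. All 41 passed the filter of a mean log2 value of at least 4, which left 7382 of 12394 genes for testing, 260 of them on chromosome 19. The other 219 chromosome 19 genes serve as a comparison.

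The study measured total RNA of mouse embryo fibroblasts (MEFs), connective tissue cells cultured from embryos, on Affymetrix arrays. The lines carry 3 copies of chromosome 19 (Ts19, 1 line), chromosome 13 (Ts13, 4 lines), chromosome 16 (Ts16, 3 lines) or chromosome 1 (Ts1, 1 line), or a normal complement (Wt, 9 lines), and all were grown for 2 passages. There is 1 array per line, so Ts19 and Ts1 have no replicate, and the tests give a single array the spread of the other groups. The labels do not say whether each line came from its own embryo, so p-values reflect only how these samples differ among themselves, which may be technical. All values below are log2 expression values, so a difference of 1 is 2-fold.

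A cell with an extra chromosome carries an additional template of every gene on it, and if transcript level follows gene dose, each gene there is expressed in proportion to its copies. Among the genes described, Fas is a death receptor of the cell surface, and Rela and Nfkb2 are subunits of NF-kB, a transcription factor family that drives inflammatory and survival genes. Scd1, Scd2 and the Fads genes place double bonds into fatty acids, and Fth1 forms the iron-storing shell of ferritin.

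The arrays differed in RNA quality. The Gapdh control probe set at the 3' end of the transcript exceeded the one at the 5' end by 5.57 to 6.94 on Ts16 replicate 1 and Ts13 replicates 3 and 4, called the 3'-biased arrays here, against -0.20 to 1.41 on the other 15 arrays. The Ts19 array and all 9 Wt arrays were among those 15. All 9 fibroblast markers passed the filter, and so did all 6 smooth muscle markers (mean 11.08 on Ts19, 10.74 to 12.36 over Wt). Of the other markers measured, 2 of 10 for macrophages passed, and 2 of 5 each for epithelial, adipocyte and neural cells. None passed of 5 endothelial and 2 erythroid markers. The mean of the epithelial markers was 4.52 on the Ts19 array and 2.99 to 4.16 over the Wt arrays, and that of the macrophage markers was 2.77 on Ts19 and 2.56 to 4.78 over Wt, highest on Wt replicate 8. In bulk samples, fewer cells of a type and less RNA per cell cannot be told apart, and the part of these cells in the values below was not tested.

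The first comparison asks how far the genes were higher in the line with 3 copies of their chromosome. All 41 were above the Wt mean on the Ts19 array, by a median of 0.54 (1.46-fold), from 0.04 for Cep55 to 2.01 for Ch25h. The other 219 chromosome 19 genes had a median of 0.58, with 96.35% above the Wt mean, and all 7382 tested genes a median of -0.08, with 38.78% above. On the Ts19 array 23 of the 41 genes were above every Wt array, which is 56.1%, against 54.79% of the other chromosome 19 genes and a background of 6.16% of all tested genes. The other 18 lay inside the Wt range, and none was below the Wt median. Near the upper edge of the range, 5 genes were within 0.05 above the highest Wt array and 6 within 0.05 below it.

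**Figure D1:**
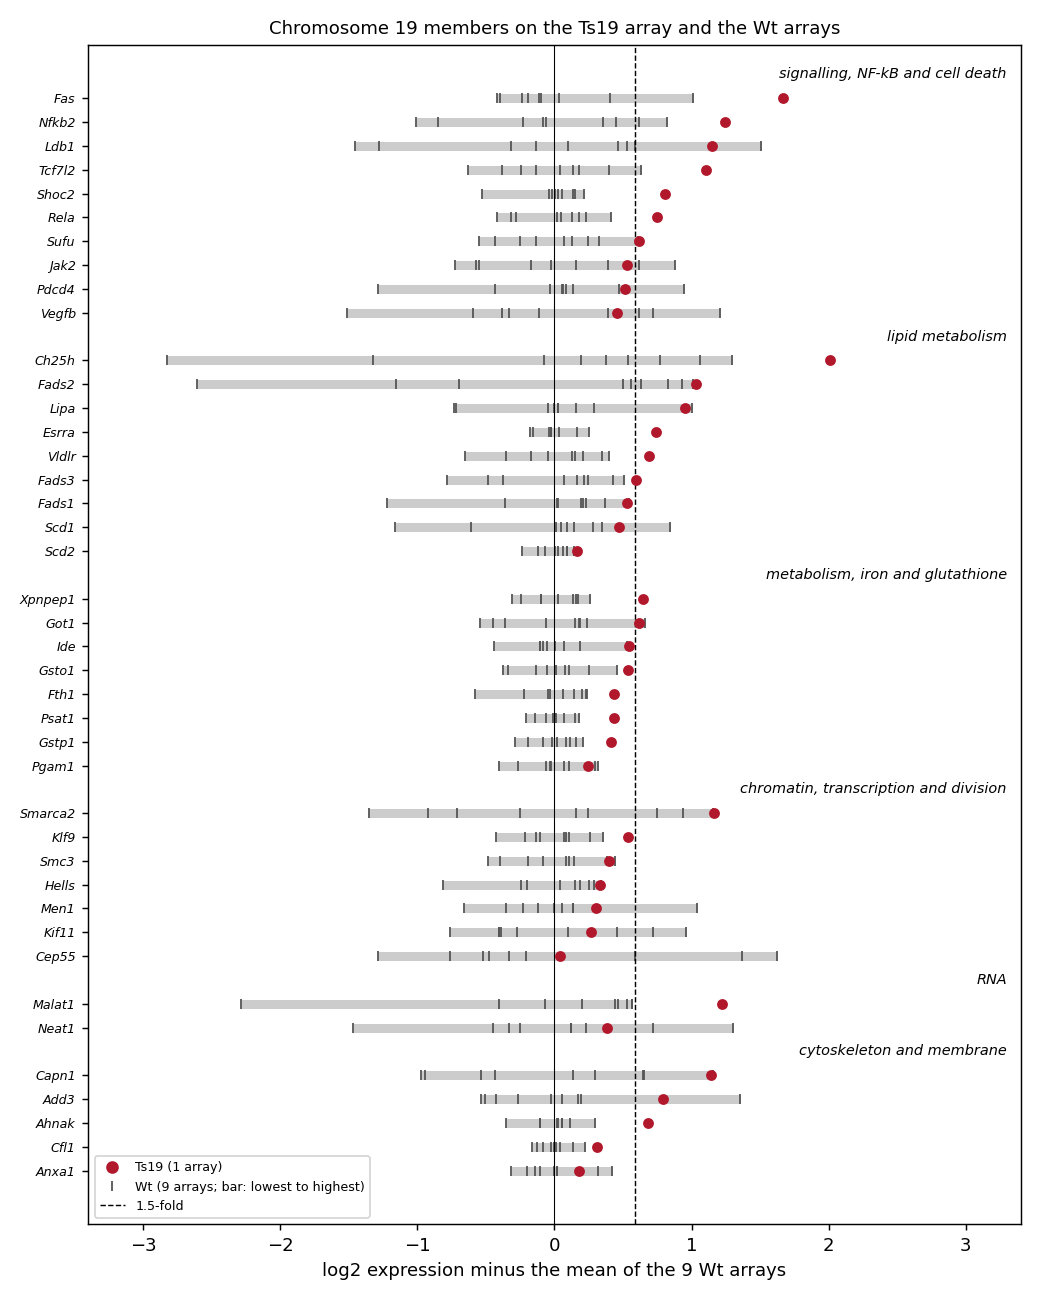
Log2 value of each of the 41 genes minus its mean over the 9 Wt arrays, by role; red circles are the Ts19 array, ticks the Wt arrays, grey bars the range from the lowest to the highest Wt array, and the dashed line marks a 1.5-fold difference. The red circle is to the right of every Wt tick for 23 genes and inside the grey bar for 18.

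**Figure D2:**
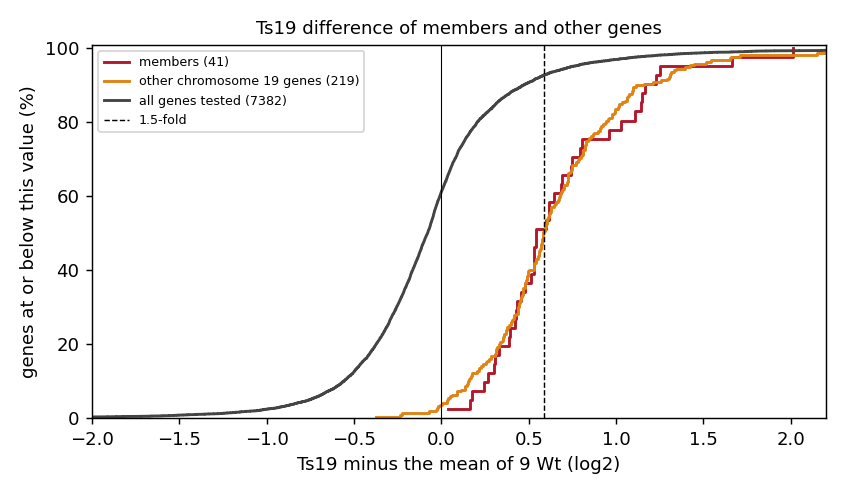
Cumulative share of genes by their difference between Ts19 and the Wt mean (log2), for the 41 genes, the other 219 chromosome 19 genes and all 7382 tested genes. The curves of the 41 genes (median 0.54) and of the other chromosome 19 genes (median 0.58) lie together, to the right of the curve of all tested genes (median -0.08).

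No single gene passed the test across all genes. With limma and Benjamini-Hochberg adjustment over 7382 genes, 0 of the 41 genes and 0% of all genes were called in Ts19 against Wt. At an unadjusted p under 0.05 there were 6 of the 41 genes, 27 of the 219 other chromosome 19 genes and 145 of all 7382 genes. Leaving out the 3'-biased arrays does not change the differences between Ts19 and Wt, since neither group holds such an array. It lowered their median SE over the 41 genes from 0.53 to 0.45, and the test still called none. Tested against a 1.5-fold rise (a difference of 0.58) instead of no change, with adjustment over the 260 chromosome 19 genes, 0% of them were called. The unadjusted p was under 0.05 for 6 of the 260, among them Scd2 (limma's unadjusted p = 0.023, adjusted p = 1.0), whose difference of 0.17 was below that size. Wt replicate 8 shares the first number of its title with the Ts19 line. Against that array alone, all 41 genes were higher on Ts19, by a median of 0.54 (0.07 to 1.86). So were 215 of the 219 other chromosome 19 genes (median 0.60) and 3097 of all 7382 tested genes (median -0.05).

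The median difference is given by signal and by role of the gene. The 10 genes with a Wt mean of at least 13 had a median difference of 0.42, and the 31 below it 0.62. The median was 0.78 over 10 signalling and cell death genes, 0.69 over 9 lipid genes, 0.68 over 5 cytoskeleton and membrane genes, 0.48 over 8 metabolism genes and 0.33 over 7 chromatin and division genes. These medians were not tested against each other. The SD of a gene over the 9 Wt arrays ran from 0.12 to 1.30, with a median of 0.39.

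Among the signalling genes, Fas had 8.65 on the Ts19 array, against 6.57 (lowest), 6.87 (median) and 8.00 (highest) on the Wt arrays. It lay above the whole Wt range, by 1.67 ± 0.54 over the Wt mean (SE; limma's unadjusted p = 0.0072, adjusted p = 1.0). On the arrays with 2 copies of chromosome 19 the next highest Fas value was 8.31, on the 3'-biased Ts13 replicate 4. Rela had 11.20 on Ts19, against 10.03, 10.50 and 10.86 as lowest, median and highest Wt values. Nfkb2 had 8.05 on Ts19, against 5.79, 6.74 and 7.62 in Wt. Both NF-kB subunits were thus above every Wt array, with differences of 0.75 ± 0.33 and 1.25 ± 1.36 (SE). Nfkb2 had values of 2.52 to 4.06 on the 3'-biased arrays, which enter the spread of its test.

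Shoc2, a scaffold that promotes signalling from Ras to Raf, had 11.84 on Ts19, against 10.51, 11.06 and 11.25 as lowest, median and highest Wt values. The difference was 0.80 ± 0.25 (SE; limma's unadjusted p = 0.0046, adjusted p = 1.0). Tcf7l2, a transcription factor that acts with beta-catenin in Wnt signalling, had 9.15 on Ts19, against 7.41, 8.08 and 8.67 in Wt. Both genes were higher on Ts19 than on any of the other 17 arrays, on the probe sets used here. The second probe set of Shoc2 had 6.45 on Ts19, inside a Wt range of 4.48 to 8.02. That of Tcf7l2 had 8.73 on Ts19 and at most 8.49 in Wt. Sufu, an inhibitor of the Gli factors of hedgehog signalling, had 9.28 on Ts19 and at most 9.27 in Wt, level with the highest Wt array to within rounding. The remaining 4 signalling genes lay inside the Wt range: the cytokine receptor kinase Jak2 (10.05 on Ts19, 8.80 to 10.40 in Wt), the growth factor Vegfb (7.85 on Ts19, 5.88 to 8.60 in Wt), the adaptor Ldb1 (9.84 on Ts19, 7.24 to 10.20 in Wt) and the translation inhibitor Pdcd4 (9.44 on Ts19, 7.64 to 9.87 in Wt).

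Of the lipid genes, Ch25h, whose enzyme makes an oxysterol from cholesterol, had the largest difference of the 41. It had 10.57 on Ts19, against 5.73, 8.93 and 9.85 as lowest, median and highest Wt values. The groups did not overlap, but Ch25h also had the widest Wt spread (SD 1.30, n = 9), and the difference of 2.01 ± 1.08 (SE) had a 95% interval from -0.27 to 4.29. Esrra, a nuclear receptor that controls genes of mitochondrial energy metabolism, had a narrow Wt range. It had 7.69 on Ts19, against 6.77, 6.92 and 7.20 in Wt, a difference of 0.74 ± 0.30 (SE) over a Wt SD of 0.14. Vldlr, a receptor for lipoproteins, had 11.32 on Ts19, against 9.98, 10.76 and 11.03 in Wt, above the whole range.

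Scd2, a stearoyl-CoA desaturase, had 15.18 on Ts19, against 14.78, 15.04 and 15.16 in Wt, and was above every Wt array by 0.02 with a difference of 0.17 ± 0.17 (SE). Scd1 (12.38 on Ts19, 10.74 to 12.75 in Wt) and Fads1 (12.36 on Ts19, 10.61 to 12.38 in Wt) lay inside the Wt range. Fads3 had 12.47 on Ts19 and 11.09 to 12.38 in Wt. Fads2 had 11.02 on Ts19 and 7.38 to 11.00 in Wt. Both were just above the Wt range on the probe sets used here. On Ts19 the second probe sets of Fads2 (8.92, at most 9.96 in Wt) and Scd2 (12.46, at most 13.02) lay inside it. Those of Fads3 (8.34, at most 7.85) and Vldlr (9.89, at most 9.64) were above it. The Fads2 difference of 1.03 ± 2.62 (SE) became 0.70 without Wt replicate 1, the array with 7.38. Lipa, the acid lipase of lysosomes, had 10.89 on Ts19, inside the Wt range of 9.20 to 10.94.

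The metabolism genes had differences between 0.24 and 0.65, and 6 of 8 were above every Wt array on the probe sets used here. That share was 54.79% over the other chromosome 19 genes and 6.16% over all tested genes. On Ts19 the second probe sets of Fth1 (14.39, at most 14.46 in Wt), Gsto1 (13.77, at most 13.86) and Ide (10.34, at most 10.47) lay inside the Wt range. That of Psat1 (13.78, at most 13.45) was above it. Fth1, the ferritin heavy chain, had 15.29 on Ts19, against 14.28, 14.92 and 15.10 as lowest, median and highest Wt values. Gstp1 and Gsto1, glutathione transferases, had 14.04 and 14.87 on Ts19 and at most 13.83 and 14.79 in Wt. Psat1, an enzyme of serine synthesis, had 13.97 on Ts19, against 13.33, 13.54 and 13.72 in Wt. Xpnpep1, a peptidase, had 11.41 on Ts19 and at most 11.02 in Wt, and the insulin-degrading enzyme Ide had 11.37 on Ts19 and at most 11.35 in Wt. The glycolytic enzyme Pgam1 (14.26 on Ts19, 13.61 to 14.33 in Wt) and the aspartate aminotransferase Got1 (11.32 on Ts19, 10.16 to 11.36 in Wt) stayed inside the Wt range.

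Ahnak, a very large scaffold protein at the membrane, had the smallest p of the 41 genes. It had 15.00 on Ts19, against 13.96, 14.34 and 14.61 as lowest, median and highest Wt values, a difference of 0.68 ± 0.18 (SE; limma's unadjusted p = 0.0017, adjusted p = 1.0). Cfl1, cofilin, which severs actin filaments, had 15.78 on Ts19 and 15.30 to 15.69 in Wt, also above the range on the probe set used here. On Ts19 the second probe sets of Ahnak (5.52, at most 5.67 in Wt) and Cfl1 (13.60, at most 13.63) lay inside the Wt range. The protease Capn1 (7.74 on Ts19, 5.62 to 7.75 in Wt), Anxa1, a phospholipid-binding annexin (15.47 on Ts19, 14.98 to 15.71 in Wt), and the actin-capping adducin Add3 (8.47 on Ts19, 7.14 to 9.03 in Wt) lay inside it. Of the nuclear noncoding RNAs, Malat1 had 14.74 on Ts19, against 11.23, 13.96 and 14.08 in Wt, above the whole range. Without Wt replicate 1, the array at 11.23, its difference was 0.94 instead of 1.23. Neat1, the RNA on which paraspeckles form, had 11.15 on Ts19, inside the Wt range of 9.30 to 12.07.

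The genes of chromatin and division had the lowest median of these groups, 0.33. Smarca2, an ATPase of chromatin remodelling complexes, had 10.39 on Ts19, against 7.87, 9.38 and 10.38 as lowest, median and highest Wt values, and cleared the range by 0.01. Klf9, a transcription factor, had 12.37 on Ts19 and at most 12.19 in Wt. Men1, a scaffold of histone methyltransferase complexes, had 9.47 on Ts19, inside the Wt range of 8.51 to 10.21. The remaining genes of the group act in the chromosome cycle, and all of them lay inside the Wt range.

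Kif11, the kinesin that pushes spindle poles apart, had 9.27 on Ts19, against 8.24, 8.73 and 9.96 as lowest, median and highest Wt values. Cep55, which acts when daughter cells separate, had 9.62 on Ts19, against 8.29, 9.25 and 11.20 in Wt. Hells, a chromatin remodeller of the SNF family, had 10.86 on Ts19, against 9.72, 10.68 and 10.87 in Wt. Their differences were 0.27 ± 0.69, 0.04 ± 1.07 and 0.33 ± 0.53 (SE). Smc3, a cohesin subunit, had 10.18 on Ts19 and 9.30 to 10.23 in Wt.

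Kif11, Cep55 and Hells were high and low on several of the same arrays. All had values near their highest on Ts16 replicate 2 (10.32, 11.26 and 11.23 for Kif11, Cep55 and Hells) and on Wt replicate 2 (9.96, 10.95 and 10.87). All were low on Wt replicate 3 (8.24, 8.82 and 9.72) and on Ts13 replicate 2 (7.73, 7.86 and 9.63). The high and low arrays thus both include Wt lines with 2 copies of every chromosome. On the 3'-biased Ts13 replicate 3 the genes did not go together, with Kif11 at its lowest value of all arrays (7.25) and Hells at 10.51, inside the Wt range.

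**Figure D3:**
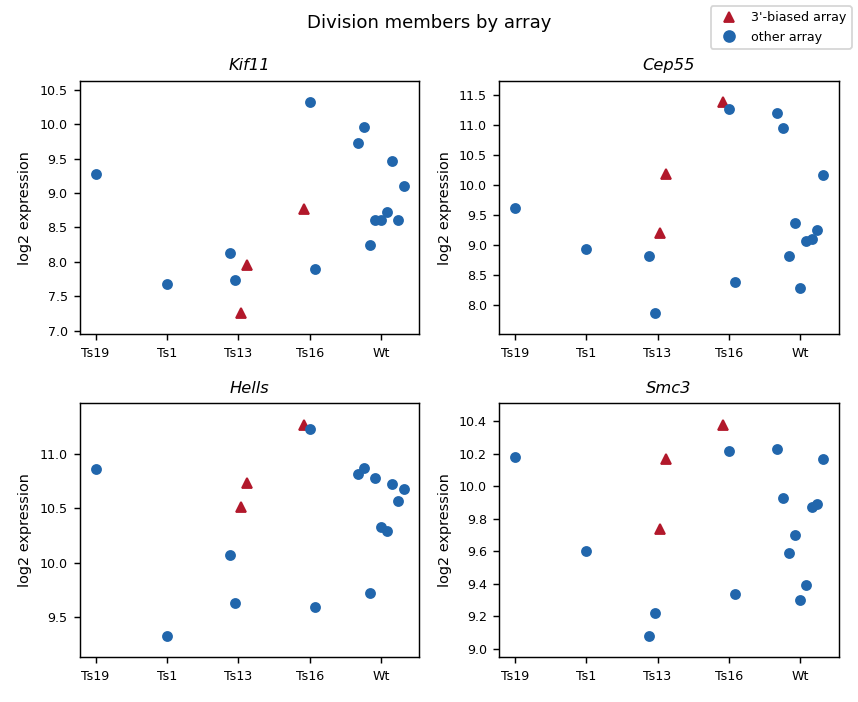
Log2 values of the division genes on each of the 18 arrays, grouped by karyotype. The Ts19 value lies inside the Wt range for Kif11, Cep55, Hells and Smc3, and all 4 are high on Ts16 replicate 2 and low on Ts13 replicate 2. Triangles mark the 3'-biased arrays.

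The promoters of Kif11, Cep55 and Hells are shown because these genes were high and low on several of the same arrays. Each runs from 250 bases before to 50 bases after the annotated start, from RefSeq on GRCm38.p6, plus strand, 5′ to 3′. Kif11 is at chr19:37376132-37376431, Cep55 at chr19:38054734-38055033 (the first of 2 annotated starts) and Hells at chr19:38930740-38931039. Capitals mark the CHR element TTTGAA, the CCAAT box CCAAT and the E2F site GCGGGAA, elements known from promoters of cell cycle genes, searched on both strands.
Kif11: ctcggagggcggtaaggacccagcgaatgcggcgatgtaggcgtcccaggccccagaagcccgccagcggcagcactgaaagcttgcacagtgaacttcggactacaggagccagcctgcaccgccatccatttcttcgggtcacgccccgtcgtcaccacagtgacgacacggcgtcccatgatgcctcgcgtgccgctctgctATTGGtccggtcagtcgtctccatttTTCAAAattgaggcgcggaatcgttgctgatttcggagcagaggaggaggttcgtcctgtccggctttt
Cep55: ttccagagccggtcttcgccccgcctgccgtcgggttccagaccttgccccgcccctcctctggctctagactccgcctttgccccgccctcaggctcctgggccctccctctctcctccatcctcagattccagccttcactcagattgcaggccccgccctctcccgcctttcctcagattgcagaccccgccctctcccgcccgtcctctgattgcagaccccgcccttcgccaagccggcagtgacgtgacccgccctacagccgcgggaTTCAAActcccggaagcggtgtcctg
Hells: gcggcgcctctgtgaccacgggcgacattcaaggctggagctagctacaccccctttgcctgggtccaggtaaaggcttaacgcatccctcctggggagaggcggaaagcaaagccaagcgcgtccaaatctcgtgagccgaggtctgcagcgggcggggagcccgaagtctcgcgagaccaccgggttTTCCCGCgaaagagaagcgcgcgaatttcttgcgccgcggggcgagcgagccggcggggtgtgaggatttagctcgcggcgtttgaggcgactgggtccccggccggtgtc
Kif11 held 1 CHR element and 1 CCAAT box, Cep55 1 CHR element and Hells 1 E2F site, and the searched motifs do not overlap there. Over all 32851 promoter windows of the same length, a CHR element occurred in 17.9%, a CCAAT box in 37.4%, an E2F site in 4.6%, and a CHR element together with a CCAAT box in 7.0%. Such matches describe the letters only. The window of Smc3 held none of these motifs. Smc3 was likewise high on Ts16 replicate 2 (10.22) and low on Ts13 replicate 2 (9.22).

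Partner genes of the same pathways on other chromosomes, which all lines but their own trisomies hold in 2 copies, were read for comparison. Of 130 listed partners, 98 passed the filter. Limma called 0 of them in either direction, and their median difference between Ts19 and Wt was -0.00, beside -0.08 over all tested genes. On Ts19, 9 were above every Wt array (9.18%, against 6.16% of all tested genes) and 3 below (3.06%, against 11.88%). The 17 tested NF-kB and death receptor partners had a median difference of 0.01, with 10 above the Wt mean, 3 above every Wt array and 1 below. The smallest p-values of that list belonged to Ccl2 and Icam1. The chemokine Ccl2 had 12.14 on Ts19 and at most 11.51 in Wt, a difference of 1.46 ± 0.58 (SE). The adhesion molecule Icam1 had 8.53 on Ts19 and 2.71 to 7.93 in Wt, with a Wt median of 3.96. That median is under the filter value of 4, so no size is given for its difference. Both are known targets of NF-kB and were above the Wt range, and neither passed the test (limma's adjusted p = 1.0).

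Of the JAK, Ras and growth factor partners, the phosphatase Dusp6 had 10.99 on Ts19 and at most 10.73 in Wt, and Dusp1 had 12.21 on Ts19, inside a Wt range of 10.66 to 12.49. The lipoprotein lipase Lpl had 11.31 on Ts19, against 5.93 to 11.19 in Wt, and the sterol synthesis enzyme Hmgcs1 had 14.15 on Ts19, inside 13.18 to 14.42 in Wt. The glutathione genes Gsta4 (9.77 on Ts19, at most 9.55 in Wt) and Gclm (10.30 on Ts19, at most 10.09 in Wt) lay above the Wt range. For Wnt and hedgehog signalling, Ctnnb1, which encodes beta-catenin, had 14.33 on Ts19 and 14.32 to 14.82 in Wt, and the receptor Ptch1 had 7.98 on Ts19 and 7.43 to 9.33 in Wt. The 15 division partners had a median of -0.17, with 4 above the Wt mean. Of these, the chromatin gene Arid1a had 10.08 on Ts19 and at least 10.18 in Wt, and the kinesin Kif23 had 9.44 on Ts19 and 9.35 to 11.55 in Wt.

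The second comparison sets the trisomies of other chromosomes against Wt, and in these lines the 41 genes are present in 2 copies. Medians over the 41 genes were -0.09 in Ts13, -0.07 in Ts16 and 0.03 in Ts1, beside 0.01, -0.05 and 0.05 over all tested genes. Limma called 1 of the 41 genes in Ts13, 0 in Ts16 and 0 in Ts1 after Benjamini-Hochberg adjustment. The background was 1.76% of all tested genes in Ts13, 0.0406% in Ts16 and 0.0406% in Ts1. At an unadjusted p under 0.05 there were 12 of the 41 genes in Ts13 (29.3%, against 21.9% of all tested genes), 2 in Ts16 (4.9%, against 7.0%) and 2 in Ts1 (4.9%, against 6.3%). Without the 3'-biased arrays the Ts13 count was 3 (7.3%, against 9.7% of all tested genes) and the Ts16 count 1 (2.4%, against 9.0%). These comparisons and that of Ts19 use the same Wt arrays.

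The gene called was Psat1. It had 13.06, 13.38, 12.15 and 12.00 on Ts13 replicates 1 to 4, against 13.33, 13.54 and 13.72 as lowest, median and highest Wt values. Replicates 1, 3 and 4 were below the Wt range and replicate 2 was inside it. The difference was -0.89 ± 0.20 (SE; limma's adjusted p = 0.032). The lower pair of values comes from the 3'-biased replicates, and without the 3'-biased arrays the difference was -0.32 ± 0.13 (SE; limma's adjusted p = 0.43). The count of genes called in Ts13 was 0 when Ts13 replicate 3 or 4 or Wt replicate 3, 4, 7 or 8 was left out singly. It was 2 without Ts13 replicate 1 and 4 without Ts13 replicate 2. The shares over all tested genes under these settings are not given here.

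The third comparison describes the 3'-biased arrays, by setting Ts16 replicate 1 and Ts13 replicates 3 and 4 against the other arrays of their own karyotype. Some genes of the list dropped steeply there and others were higher. Limma called 9 of the 41 genes lower on the 3'-biased arrays, against a background of 18.6% of all tested genes, and 7 higher, against a background of 21.6%. The shares were 22.0% and 17.1% of the 41 genes, near the background in both directions. The other 25 genes passed in neither direction.

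Fads2 and Ldb1 dropped to the low end of the scale. Fads2 had 2.59, 2.68 and 2.64 on Ts16 replicate 1 and Ts13 replicates 3 and 4, against 9.02, 10.76, 9.71 and 9.84 on Ts16 replicates 2 and 3 and Ts13 replicates 1 and 2. Ldb1 had 3.27, 2.76 and 2.76 on the 3'-biased arrays, against 8.39, 9.76, 9.06 and 9.30 on the other arrays of those karyotypes. The groups were far apart for both genes. All values on the 3'-biased arrays were under the filter value of 4, so the low end of the scale limits the size of these differences and no order is read from them; the fitted differences were -7.19 ± 0.73 for Fads2 (SE; limma's adjusted p = 2.4e-06) and -6.17 ± 0.58 for Ldb1 (SE; limma's adjusted p = 9.7e-07).

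Nfkb2 had 2.86, 4.06 and 2.52 on the 3'-biased arrays, against 5.25, 7.14, 6.75 and 6.80 on the others, a difference of -3.43 ± 0.52 (SE; limma's adjusted p = 1.2e-04) that also reaches values under 4. Malat1 had 9.70, 10.87 and 11.44 on the 3'-biased arrays, against 14.13, 14.23, 14.43 and 13.90 on the others, a difference of -3.59 ± 0.55 (SE; limma's adjusted p = 1.3e-04). Got1 had 9.53, 6.22 and 6.04 on the 3'-biased arrays, against 10.97, 11.25, 10.27 and 10.99 on the others. None of these genes overlapped between the 3'-biased and the other Ts13 and Ts16 arrays, and Got1 fell less on Ts16 replicate 1 than on the Ts13 pair. Against Wt, Malat1 did overlap, with 11.44 on Ts13 replicate 4 and 11.23 on Wt replicate 1. Smaller drops passed for Gstp1 (-1.15), Men1 (-0.99), Psat1 (-0.66) and Fth1 (-0.58).

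The genes called higher were Jak2 (1.30), Add3 (1.12), Lipa (0.93), Smc3 (0.72), Klf9 (0.69), Xpnpep1 (0.69) and Cfl1 (0.33). Jak2 had 10.30, 10.36 and 10.22 on the 3'-biased arrays, against 9.15, 8.92, 8.69 and 9.25 on the others, with no overlap. The macrophage markers had a mean of 5.75 on Ts13 replicate 4, the highest of all arrays, and Lipa was at its highest there (11.27). Lipa had 11.10 on Ts13 replicate 3. On Wt replicate 8, where the macrophage markers had their highest Wt mean (4.78), Lipa had 10.09. The part of such cells in the Lipa value was not tested. The count of genes called higher was 4 when Ts13 replicate 1, 2 or 4 was left out singly and 1 without Ts16 replicate 1. The shares over all tested genes under these settings are not given here. Lipa's call was lost under 19 of the alternative settings tried. All 3 biased arrays were below every Wt array for 5 of the 41 genes (Fads2, Ldb1, Nfkb2, Got1 and Gstp1), against 12.7% of all tested genes, and above every Wt array for Cfl1 and Xpnpep1, against 10.3% of all tested genes.

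**Figure D4:**
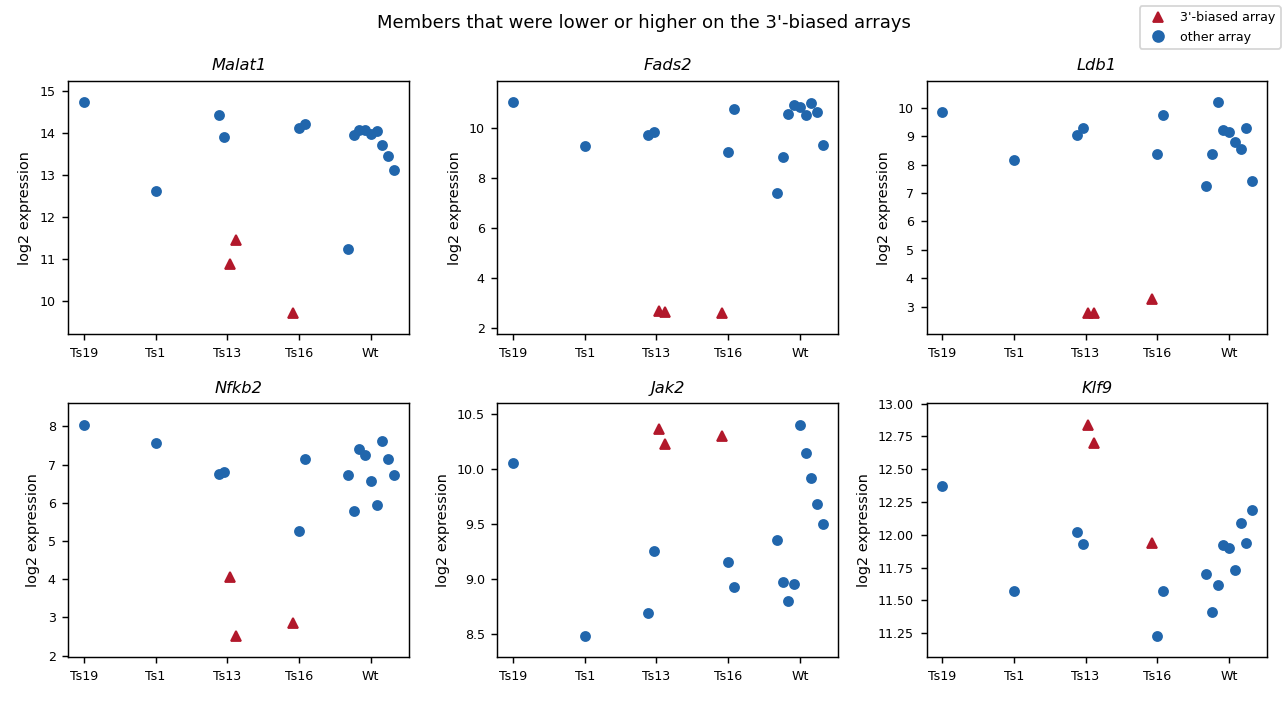
Log2 values of Malat1, Fads2, Ldb1, Nfkb2, Jak2 and Klf9 on each array, grouped by karyotype, with triangles for the 3'-biased arrays and circles for the others. The triangles lie below the other Ts13 and Ts16 arrays for Malat1, Fads2, Ldb1 and Nfkb2 and above those of the same karyotype for Jak2 and Klf9.

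Different probe sets of a gene did not behave alike on these arrays. Of the 41 genes, 21 had several probe sets with a mean of at least 4, and for 5 of these the probe sets differed by more than 0.2 in both directions between the 3'-biased and the other arrays. For 16 of the 21 the probe sets of a gene differed by more than 1. Scd2 had the widest spread. Its probe set used here differed by 0.08 between the 3'-biased and the other arrays (means of arrays), while its other probe sets differed by -9.02 and -7.36, with values under 4 on most or all of the 3'-biased arrays. The probe sets of Ide ranged from -5.88 to 0.10, and those of Cfl1 were at 0.35 and -3.64. The Cfl1 set at 0.35, used here, has a name ending that marks probes able to bind other transcripts. The sets used for Gsto1 and Vldlr have the same ending. All 5 probe sets of Malat1 were lower on the 3'-biased arrays, with differences from -6.73 to -3.50, and both of Fads2 were lower, with -7.20 and -6.01.

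**Figure D5:**
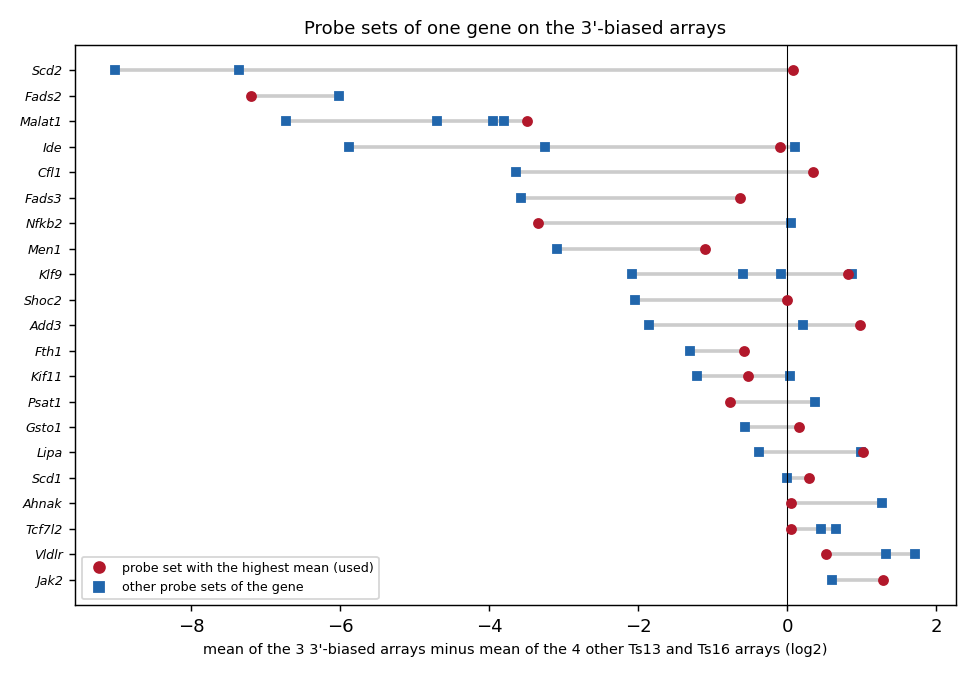
Difference between the 3'-biased and the other arrays of the same karyotype (log2) for each probe set of the genes with several probe sets, with the probe set used here marked. Scd2 spans from -9.02 to 0.08, whereas the probe sets of Tcf7l2 stay between 0.05 and 0.65.

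The probe sets with the lowest values on the 3'-biased arrays were also low on some Wt arrays. Of the probe sets of the 41 genes, 19 (of 12 genes) differed by less than -2 between the 3'-biased and the other arrays of those karyotypes. On these 19, Wt replicate 1 was below the mean of the other Wt arrays by a median difference of -1.10, and it was the lowest of the 9 for 8 of them. Wt replicate 9 had a median difference of -0.75 and was lowest for 5. Their Gapdh 3' minus 5' differences were 0.36 and 1.41, below the limit of 3. These low values enter the Wt means and medians of such genes.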

How the data were processed

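Probe set levels were deposited as log2 values, made by the authors with GCRMA (background correction, normalization and summary) and affy, per the submitters' processing notes, which name no versions. Total RNA (5 ug per sample) had been labelled with biotin, per the labels' protocols. The precision is limited by how many arrays there are.

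Probe sets were named from the array's gene table when it lists 1 gene (20393 of 22690), and 1 probe set per gene was kept, the one with the highest mean. Genes were placed on chromosomes through RefSeq (GRCm38.p6), whose promoter sequences were also used. Genes with a mean of at least 4 were tested in R 4.3.3 by limma 3.58.1 (lmFit and eBayes with a trend, 5 groups over 18 arrays, two-sided), with Benjamini-Hochberg adjustment and a threshold of 0.05. For the 3'-biased arrays (Gapdh 3' minus 5' above 3) a term for bias was added to the group. The fit was tested on simulated data with added log2 differences of 1 or more. That test does not cover a 1.5-fold difference. The members, lists and 3'-biased arrays were chosen with earlier results of these data known. All members are described, and of each partner list the genes called and up to 2 in the order of p are named.

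By replicate number the deviations of Ts16 and Wt arrays correlated at 0.52, 0.41 and 0.58, and those of Ts13 and Wt at -0.24, -0.03, -0.26 and -0.25. Ts16 and Wt replicates 1 to 3 share the first number of their titles. The Ts13 replicates share it with Wt replicates 4 to 7 instead, so their correlations do not compare arrays with a shared first number. The labels do not say what that number marks. Alternatives were other probe sets, filters, scalings, blocks, a fit without the trend, fits without the 3'-biased arrays, and leaving out each Wt, Ts13 and Ts16 array in turn. Figures were drawn with matplotlib 3.10.9.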

Additional observations from a re-analysis of the deposited data

Results flagged for a closer look

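Over the 82 groups of values examined (Wt and Ts13 arrays for each of the 41 genes), 4 held an array far from the others, and chance alone gives about 1 in 20. Shoc2 on Wt replicate 7 was the lowest of the 9 Wt arrays at 10.51, with the next at 11.00. Malat1 on Wt replicate 1 was the lowest at 11.23, with the next at 13.11. Men1 on Wt replicate 3 was the highest at 10.21, with the next at 9.30. Add3 on Wt replicate 9 was the highest at 9.03, with the next at 7.87. All values are log2 expression values.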

How the results depend on the processing

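All 41 genes kept a positive difference between Ts19 and Wt under median centring and quantile normalization, which moved the median of all tested genes to 0.06 and -0.03 from -0.08. The members' median became 0.679 with median centring, 0.612 with quantile normalization, 0.634 with the second highest probe set and 0.730 with the replicate block, and ran from 0.544 to 0.609 when single arrays were left out. With the second highest probe set of a gene, or its only one where it has 1, 15 genes were above every Wt array. Capn1, Cep55, Smarca2, Smc3 and Sufu are missing from all results with that setting, since their second probe set was under the filter. Leaving out single Wt arrays gave 23 to 27, a count that can only stay or rise when a Wt array is removed. Without the filter, 40 of all genes and 0 of the 41 were called in Ts19. The Ts13 count of 1 was 0 with the replicate block, the first number as a block, the second highest probe set, no trend or without the 3'-biased arrays, and 0 to 4 when single arrays were left out (4 without Ts13 replicate 2). On the 3'-biased arrays, 3 instead of 7 genes were higher with the second highest probe set, and 1 to 9 when single arrays were left out (1 without Ts16 replicate 1). For these counts of genes called or above every Wt array, the shares over all tested genes under each setting are not given here. With the replicate block, Ts19 minus Wt turned to -0.07 for Got1, -0.04 for Pgam1 and -0.12 for Kif11. It turned to -1.09 for Cep55, -0.04 for Men1 and -0.05 for Anxa1. That block groups arrays by replicate number, so it sets Ts19 beside Wt replicate 1, which does not share its first number. Against Wt replicate 8 alone, which shares it, the differences were 0.47, 0.27, 0.66, 0.36, 0.96 and 0.16 in the same order. The median of 0.730 and the Ts13 count with the replicate block are limited in the same way. Cep55 was -0.58 with the mean of all probe sets and -0.12 to 0.24 when single arrays were left out. On the 3'-biased arrays, the mean of all probe sets gave -0.29 for Klf9, -1.65 for Cfl1 and -0.07 for Add3, and the second highest probe set gave 0.48 for Psat1, -0.35 for Klf9, -3.63 for Cfl1 and -1.65 for Add3. The cause was not tested.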

Other observations

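Partner genes outside the Wt range on Ts19 that are not described above were picked after their values were seen. The apoptosis inhibitor Bcl2l1 had 9.19 on Ts19 and at most 9.08 in Wt, Stat3, a transcription factor downstream of JAK kinases, had 12.65 on Ts19 and at most 12.58 in Wt, and Actb had 16.22 on Ts19 and at most 16.21 in Wt. Birc2, a regulator of death receptor signalling, had 7.82 on Ts19 and at least 8.07 in Wt, and the mitotic kinase Plk1 had 9.16 on Ts19 and at least 9.26 in Wt. Limma called none of these 5 genes after Benjamini-Hochberg adjustment.

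The adipocyte marker Fabp4 had 5.11 on Ts19, below the lowest Wt value of 6.44, while Lpl, from the same marker list, was above the Wt range. These marker values were also picked after they were seen and were not tested.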
